A study of Mus musculus with 8 samples.

Results

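The subject is the mouse haemoglobin genes: the alpha-like genes Hba-x, Hba-a1 and Hba-a2 and the beta-like genes Hbb-y, Hbb-bh1, Hbb-bh0, Hbb-bt and Hbb-bs. They were taken by name from the feature list of the count matrices, and are 8 of 55422 features. Their UMI counts (unique molecular identifiers, each standing for 1 captured transcript) were followed through chimaeric embryos of E7.5 and E8.5, the embryonic days 7.5 and 8.5. The chimaeras had been made by injecting embryonic stem cells (ESCs) that lack Tet1, Tet2 and Tet3 (Tet-TKO) into wild-type C57BL/6J blastocysts, which were carried by CD1 females. The labels give the Tet-TKO cells the mixed background C57BL/6J-129Sv and the host cells C57BL/6J, so genotype and strain cannot be told apart. All mutant cells came from 1 ESC line, which carries an H2B-tdTomato reporter under the CAG promoter. Embryos were pooled, dissociated and sorted into tdTomato-positive (Tet-TKO) and tdTomato-negative (WT host) cells, which had thus developed side by side in the same embryos. The single-cell RNA-seq (10x Genomics 3′ v3) comprised 4 Tet-TKO and 2 WT host libraries of E8.5, and 1 Tet-TKO and 1 WT host library of E7.5. The labels do not say whether the libraries of a group came from separate pools of embryos, or which Tet-TKO library shares embryos with which WT host library, so p-values measure the spread between these libraries, which may be technical.

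Haemoglobin is a tetramer of alpha-like and beta-like chains that carries oxygen in red cells. The first red cells of the mouse, the primitive erythrocytes of the yolk sac, use embryonic chains: zeta-globin from Hba-x on the alpha side, and the epsilon-y and beta-h1 globins from Hbb-y and Hbb-bh1 on the beta side. In the primitive lineage Hbb-bh1 is known to come on before Hbb-y, while Hba-a1 and Hba-a2 encode the alpha chain that is used from the embryo into adult life, and Hbb-bs and Hbb-bt encode the adult beta chain. TET dioxygenases oxidise methylated cytosine and thereby open a way to remove DNA methylation.

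On GRCm38, the alpha-like genes lie on the plus strand of chr11:32276400-32297298, a span of 20.9 kb, in the order Hba-x, Hba-a1, Hba-a2. The beta-like genes lie on the minus strand of chr7:103812524-103853216, a span of 40.7 kb, with Hbb-y first in the direction of transcription, then Hbb-bh0, Hbb-bh1, Hbb-bs and Hbb-bt. Hbb-bh0 is annotated as an unprocessed pseudogene of 129 bases, at 1600 bases from Hbb-y and 6855 bases from Hbb-bh1, and the 7 other genes as protein-coding. Because Hbb-bh0 was the member called higher in Tet-TKO cells, in 2 groups of blood cells, its sequence is printed with the best ungapped match in the transcript of Hbb-bh1. Capitals mark the bases that differ between the 2 sequences, both read from GENCODE M21 transcripts of GRCm38.
Hbb-bh0, chr7:103850020-103850148, minus strand: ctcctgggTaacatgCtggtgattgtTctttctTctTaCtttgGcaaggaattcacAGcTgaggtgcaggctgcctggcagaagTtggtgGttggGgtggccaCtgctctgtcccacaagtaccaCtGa
Hbb-bh1, the matching 129 bases of its transcript: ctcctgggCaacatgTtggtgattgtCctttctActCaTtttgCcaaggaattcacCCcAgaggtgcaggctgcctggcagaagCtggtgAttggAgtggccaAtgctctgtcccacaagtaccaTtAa
The 2 sequences shared 113 of 129 bases, or 87.6%, with a longest identical run of 24 bases. Against Hbb-y the best match shared 114 of 129 bases (88.4%, longest run 21), and against Hbb-bs and Hbb-bt 74.4% and 73.6%. No window of 91 bases, the length of a transcript read in this chemistry, was shared between Hbb-bh0 and any other member.

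The promoters are shown as background. Most members fell together in whole libraries below, while in some of the blood cell groups they went both ways. RefSeq promoters of GRCm38.p6 were found for 6 of the 8 members, and the 120 bases before the annotated start of 2 embryonic and 2 adult genes are printed. Capitals mark 4 short motifs: a GATA motif (AGATAA, and also TGATAA, either strand), the CACCC box (either strand), the CCAAT box (either strand) and a TATA-like box (TATAA, and also ATAAA, on this strand only, where the 2 forms can overlap).
Hba-x, chr11:32276480-32276599, plus strand: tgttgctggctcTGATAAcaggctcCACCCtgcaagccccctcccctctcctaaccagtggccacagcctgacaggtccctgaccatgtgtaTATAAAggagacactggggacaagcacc
Hba-a1, chr11:32283552-32283671, plus strand: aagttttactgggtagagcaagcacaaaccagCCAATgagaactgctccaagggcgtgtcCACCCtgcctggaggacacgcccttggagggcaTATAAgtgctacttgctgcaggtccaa
Hbb-y, chr7:103853208-103853327, minus strand: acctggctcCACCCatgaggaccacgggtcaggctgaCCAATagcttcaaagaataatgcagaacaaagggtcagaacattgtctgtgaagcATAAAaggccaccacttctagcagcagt
Hbb-bs, chr7:103827929-103828048, minus strand: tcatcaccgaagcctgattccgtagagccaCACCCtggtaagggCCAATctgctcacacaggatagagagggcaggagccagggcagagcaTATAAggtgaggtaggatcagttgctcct
CACCC, a motif that KLF1 and related factors are known to bind, stood in all 6 promoters, against 31.7% of 32851 promoters of the same length. The TATA-like box also stood in all 6, against 16.2% of all promoters. CCAAT stood in 5 of the 6, with Hba-x as the exception, against 21.3%. The GATA motif was found only in Hba-x, against 7.63% of all promoters. The promoters of Hba-a1 and Hba-a2 share a run of 117 of 120 bases. Their transcripts also share sequence where 3′ reads fall: of the 91-base windows in the last 400 bases, 70.6% of those of Hba-a1 and 65.5% of those of Hba-a2 occur in the other gene. For Hbb-bt and Hbb-bs the shares are 48.4% and 48.7%. Reads from these windows cannot be assigned to 1 copy, so the counts within each of these pairs are uncertain.

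The libraries held 65601218 to 136982886 UMIs, and 1008 to 9545 cells each passed the study's filters at a median of 12178 to 68931 UMIs. Tet-TKO libraries 3 and 4 of E8.5 had medians of 40404 and 68931 UMIs, with 2299 and 1008 cells. Tet-TKO libraries 1 and 2 and both WT host libraries of E8.5 had medians of 12178 to 18774 UMIs. No E8.5 host library thus had the depth of Tet-TKO libraries 3 and 4. Where like Tet-TKO libraries are summed below, these are 1 with 2 and 3 with 4. No pair of libraries shared more than 29 cell barcodes. The 3′ counts give no check of the Tet deletions, and tdTomato UMIs, which check the sort, are given for groups of cells below. Clusters were made without the globin genes and named from other markers. At E8.5 they gave erythroid-like cells (5 clusters led by genes such as Slc4a1 and Alas2) and blood progenitor-like cells (1 cluster, led by Rab27b, Myb and Runx1). Between these lies cluster 9, whose markers fitted both classes (Car1, Gata1 and Klf1 lead it) and which was therefore left unnamed. No E8.5 cluster passed as haematoendothelial progenitor-like, and cluster 29, led by Etv2 and Kdr, is described in its place.

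In the WT host libraries the globin transcripts were in the blood clusters, and the level climbed in steps from blood progenitor-like cells through cluster 9 to erythroid-like cells. Levels are in counts-per-million units (CPM), with all UMIs of the same cells and library as the total. The 8 genes together made 12110 and 23900 CPM of the blood progenitor-like cells in the 2 WT host libraries, 53750 and 82390 CPM of cluster 9, and 105600 and 168200 CPM of erythroid-like cells. Erythroid-like cells were 11.8% and 20.9% of the WT host cells and held 75.9% and 84.9% of the globin UMIs of these libraries.

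**Figure D1:**
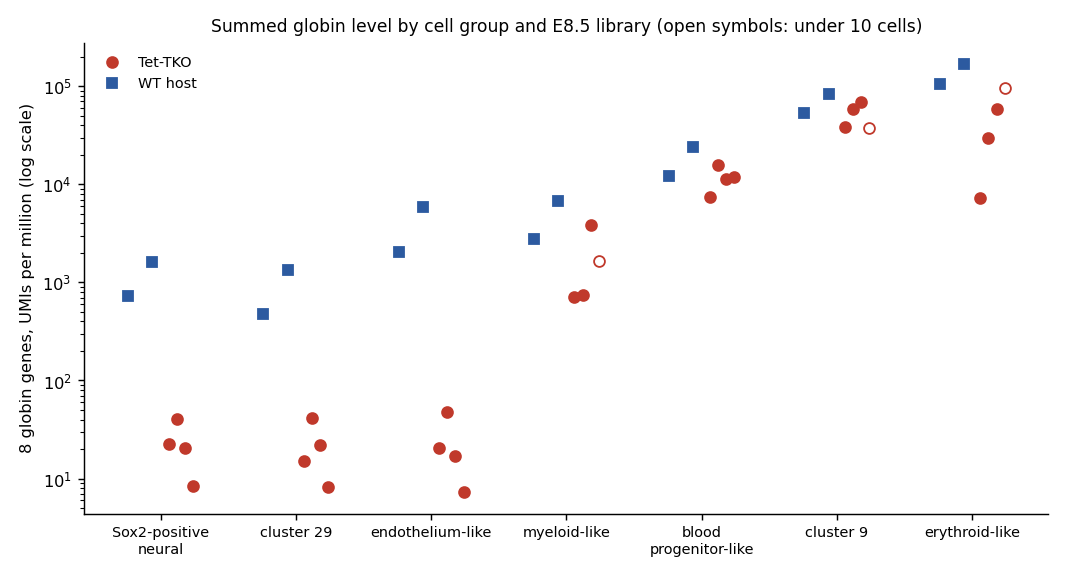
Summed level of the 8 globin genes (CPM, log axis) in 7 groups of cells of the 4 Tet-TKO (circles) and 2 WT host (squares) libraries of E8.5, each point a library, with open symbols for groups of under 10 cells. In neural cells, cluster 29 and endothelium-like cells every Tet-TKO library lies below both WT host libraries, whereas the points of blood progenitor-like cells and of cluster 9 overlap.

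Droplets also hold free RNA, so the level in cells that should not make haemoglobin sets the background. In Sox2-positive cells of neural-like clusters the 8 genes made 727.7 and 1620 CPM in the WT host libraries, and 22.46, 40.37, 20.52 and 8.432 CPM in Tet-TKO libraries 1 to 4. Relative to the level of the whole library, this was 3.72% and 3.38% in WT host and 1.15% to 3.75% in Tet-TKO libraries. After each cell was thinned to 5000 UMIs, 93.1% and 99.8% of the WT host neural cells still had a globin UMI, against 4.27% to 19.0% of the Tet-TKO neural cells, so having a globin UMI is no sign of expression in these data. Of 33 cell classes with enough cells, 8 lay above the neural cells in every library where they were measured, led by cluster 9 (mean log2 ratio 8.97 over 5 libraries), erythroid-like cells (8.64 over 5) and blood progenitor-like cells (7.42 over 6). With 6 libraries the exact sign-flip permutation test cannot go below p = 0.03125, and with 5 not below 0.0625. Blood progenitor-like cells reached 0.03125, as did surface ectoderm-like cells, which lay below the neural cells (mean log2 ratio -0.49). No class passed adjustment over the 33 classes (adjusted p = 0.295 for cluster 9, erythroid-like and blood progenitor-like cells). With such smallest p-values no class could have passed, so the adjusted values decide nothing.

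The first comparison asks how much globin RNA the Tet-TKO cells of an E8.5 embryo held as a whole. They held far less than the host cells. Hba-x made 209.1, 684.6, 727.1 and 253.5 CPM in the Tet-TKO libraries (1 to 4 in order), and 10120 and 22860 CPM in the WT host libraries. Hbb-bh1 made 313.7, 693.7, 521.4 and 313.1 CPM against 6331 and 12630 CPM. The groups did not overlap for either gene, nor for any other member but Hbb-bh0, while 17.9% of all genes tested lay below every WT host library in every Tet-TKO library. Hbb-y ranged most, from 25.37 to 305.7 CPM in Tet-TKO and from 1927 to 9326 CPM in WT host libraries. Calls were made with edgeR (quasi-likelihood test, p adjusted by Benjamini-Hochberg over all genes) where the adjusted p was under 0.01 and the absolute log2 fold change at least 1. Of the 8 members, 6 were called and all 6 were lower in Tet-TKO, where 2.06% of the 21072 genes tested were called lower. Hba-x fell by 5.23 on the log2 scale (SE 0.62, adjusted p = 0.00475) and Hbb-bh1 fell by 4.44 (SE 0.43, adjusted p = 0.00270). The genes of the adult chains fell too, with log2 fold changes of -4.48 for Hba-a1, -5.25 for Hba-a2, -4.62 for Hbb-bt and -4.65 for Hbb-bs. Hbb-y had a log2 fold change of -5.38 but missed the threshold (SE 0.98, adjusted p = 0.0183). Hbb-bh0 went the other way, with 4.044, 13.57, 12.89 and 4.788 CPM in Tet-TKO against 2.545 and 6.033 CPM in WT host libraries, and was not called (log2 fold change 0.95, adjusted p = 0.374). In a whole library, fewer cells of a type and less RNA per cell cannot be told apart. Without Tet-TKO library 3 no member was called by edgeR (adjusted p = 0.0133 for Hba-x), where 181 of 20570 genes were. Without any 1 of the other Tet-TKO libraries at least 2 and at most 4 were. In those fits 202 of 20981 to 235 of 20592 genes were called. The median log2 fold change of all genes was 0.02.

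**Figure D2:**
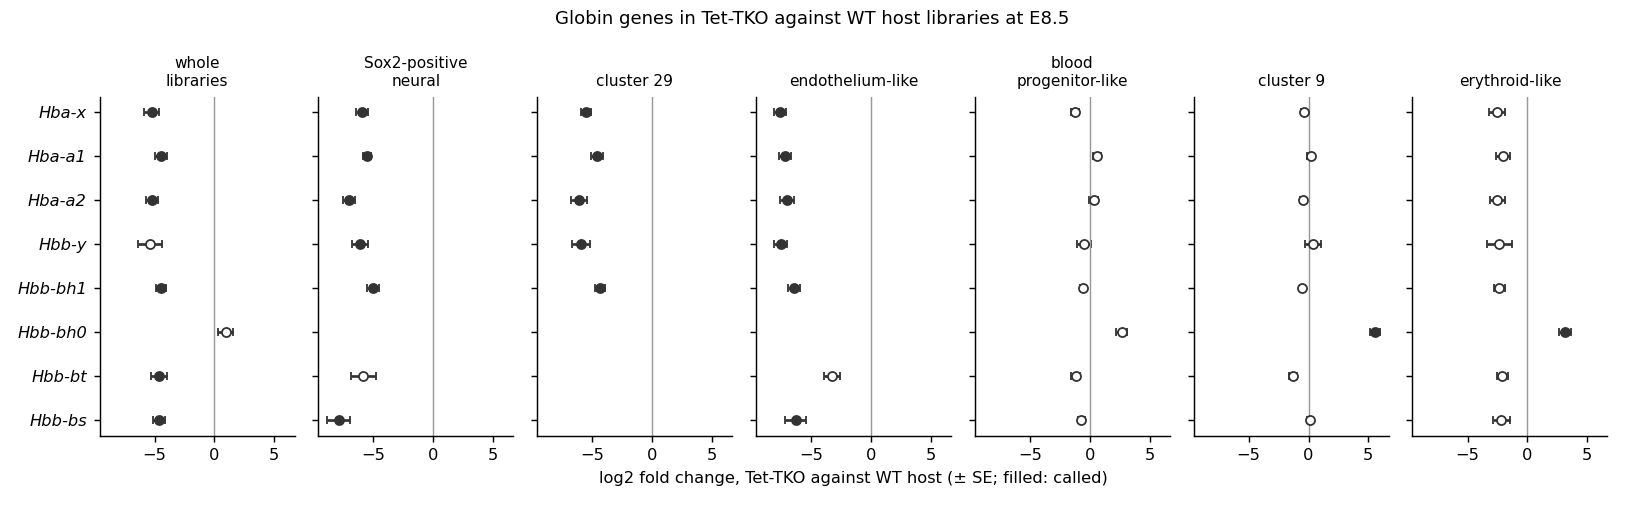
Log2 fold change of each member between Tet-TKO and WT host libraries of E8.5, with its standard error, in whole libraries and in 6 groups of cells; filled points were called, and members too low to be tested have no point. Hbb-bh0 is the only member to the right of 0 in the erythroid-like panel, and lies 5.54 to the right of it in cluster 9.

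Where the remaining globin transcripts of the Tet-TKO libraries sat also differed. Erythroid-like cells were 0.270%, 0.702%, 0.826% and 0.694% of the cells of Tet-TKO libraries 1 to 4 and held 5.00%, 15.1%, 38.0% and 30.8% of their globin UMIs. Cluster 9 held 33.0% to 56.3% of the globin UMIs in Tet-TKO against 18.3% and 10.9% in WT host libraries, and blood progenitor-like cells 9.55% to 44.6% against 1.04% and 0.50%. For both groups every Tet-TKO library lay above both WT host libraries, and for erythroid-like cells every one lay below them.

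Among blood progenitor-like cells the summed globin level overlapped between the genotypes. Per library there were 199, 212, 28 and 15 such cells in Tet-TKO and 110 and 77 in WT host. Of the Tet-TKO library cells 134, 99, 21 and 14 carried tdTomato UMIs. Hbb-bh1, the main beta-like transcript of these cells, made 5064, 9846, 6879 and 7325 CPM in the Tet-TKO libraries, in order, and 7724 and 13340 CPM in WT host, and the groups overlapped. Hba-x made 1483, 3493, 1789 and 2605 CPM against 3347 and 7551 CPM, with Tet-TKO library 2 above WT host library 1. Hba-a1 made 402.9, 843.3, 878.8 and 1015 CPM against 334.6 and 683.9 CPM, so that 3 of the 4 Tet-TKO libraries lay above both WT host libraries. No member was called here by edgeR, where 0.317% of 8211 genes were called. Of the members 5 had an unadjusted p under 0.05, as did 819 of the 8211 genes. DESeq2 called 1 member, Hbb-bh0, where 52 of the 8211 genes were called. By edgeR the log2 fold change was -1.22 for Hba-x (SE 0.33, adjusted p = 0.158), -0.54 for Hbb-bh1 (SE 0.24, adjusted p = 0.481) and 0.61 for Hba-a1 (SE 0.33, adjusted p = 0.592). Each of these signs turned under another clustering, as given below. Hbb-bt and Hbb-bs were lower in every Tet-TKO library than in both WT host libraries, as were 12.3% of all genes tested. Hbb-bh0 was higher in every one, as were 11.2% of genes, with 40.19, 103.8, 68.61 and 95.52 CPM against 15.93 and 5.49 CPM. Its log2 fold change of 2.68 (SE 0.46) missed the threshold at an adjusted p of 0.0196. Hbb-bh0 passed the filter on low counts here only through the Tet-TKO libraries, where it is high. Of these 4 were over 5.608 CPM, and 1 WT host library was, with 2 libraries needed.

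**Figure D3:**
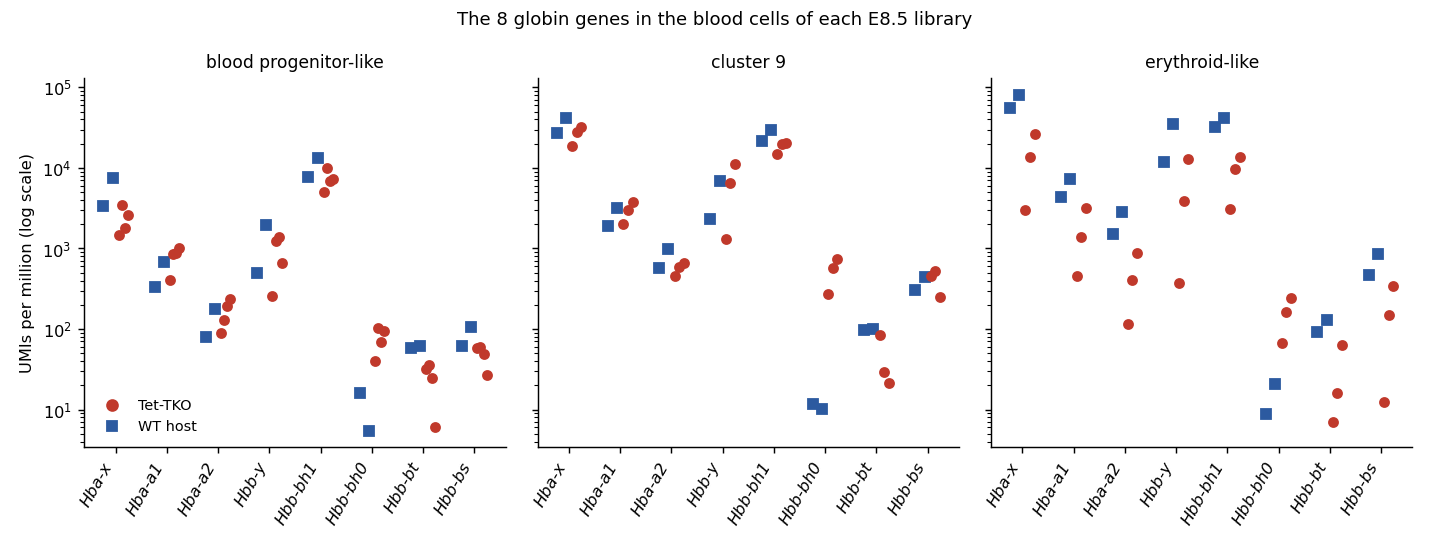
Level of each member (CPM, log axis) in blood progenitor-like cells, cluster 9 and erythroid-like cells of E8.5, each point a library with at least 10 such cells (circles Tet-TKO, squares WT host). In all 3 panels Hbb-bh0 lies higher in every plotted Tet-TKO library than in both WT host libraries. So did 11.2%, 18.3% and 42.5% of all genes tested, in the order of the panels. The 7 erythroid-like cells of Tet-TKO library 4, not plotted, made 19.67 CPM of Hbb-bh0, against 8.897 and 21.02 CPM in WT host. Hba-x overlaps between the genotypes in the first 2 panels and separates in the third, and Hbb-y overlaps in all 3.

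In cluster 9, between the progenitors and the erythroid-like cells, no coding member was called, though some of the alternatives given below called a coding member. The WT host libraries had 434 and 444 cells in it and Tet-TKO libraries 1 to 3 had 36, 113 and 19, while the fourth had 4 and is left out of the tests. Of these Tet-TKO library cells 24, 34 and 10 carried tdTomato UMIs. Hba-x made 18760, 28230 and 32450 CPM against 27170 and 41290 CPM, a log2 fold change of -0.41 (SE 0.22, adjusted p = 0.396). Hbb-y made 1324, 6451 and 11240 CPM against 2328 and 6957 CPM, and its values overlapped. Hba-a1 overlapped too, at 1986, 2968 and 3818 CPM against 1918 and 3141 CPM. Hbb-bh1, at 14720, 19950 and 20280 CPM, was below both WT host libraries (21350 and 29460 CPM) in every Tet-TKO library, but its log2 fold change of -0.51 (SE 0.16, adjusted p = 0.139) was not called. Of all genes tested in cluster 9, 13.6% lay lower in every Tet-TKO library. Hbb-bt was likewise lower in every Tet-TKO library, at 21.41 to 83.74 CPM against 97.06 and 99.98 CPM (log2 fold change -1.29, adjusted p = 0.0837). The member called in this cluster was Hbb-bh0, which rose, where 0.761% of 8021 genes were called higher.

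In erythroid-like cells the coding members had lower levels in the Tet-TKO libraries, with a wide spread between libraries, and none of the differences was called. There were 19, 67 and 19 such cells in Tet-TKO libraries 1 to 3 against 972 and 1889 in WT host libraries, and the 7 of the fourth library are left out. Those 7 cells, none with a tdTomato UMI, made 96280 CPM of the 8 genes, against 7186, 29430 and 58120 CPM in the first 3 Tet-TKO libraries and 105600 and 168200 CPM in WT host. Hba-x made 3043, 13590 and 26720 CPM against 55510 and 80010 CPM. Hbb-bh1 made 3104, 9802 and 13810 CPM against 31910 and 42010 CPM. Neither gene overlapped between the genotypes, where 8.84% of all genes lay lower in every Tet-TKO library, and library 3 was highest and library 1 lowest among the Tet-TKO libraries for both. Hbb-y made 376.7, 3919 and 12860 CPM against 11790 and 35090 CPM, so that library 3 lay above WT host library 1. None of the 7 coding members was called lower, where 1.6% of 7332 genes were. All 8 members had an unadjusted p under 0.05, as did 2508 of the 7332 genes. DESeq2 called 2 members, Hbb-bh1 lower and Hbb-bh0 higher, where 156 of 7332 genes were called lower and 501 higher. By edgeR the log2 fold changes of the coding members lay between -2.51 for Hba-x (SE 0.66, adjusted p = 0.0311) and -2.05 for Hba-a1 (SE 0.61, adjusted p = 0.0485), with an adjusted p of 0.0123 for Hbb-bh1 (log2 fold change -2.33) and 0.145 for Hbb-y (-2.33). The pseudogene Hbb-bh0 rose in these cells by 3.13 on the log2 scale (SE 0.51, adjusted p = 0.00467), where 4.68% of genes were called higher. It passed the filter on low counts only through the Tet-TKO libraries, where it is high. Of these 3 were over 9.401 CPM, and 1 WT host library was, with 2 libraries needed. The call of Hbb-bh0 in these cells is therefore not read as a result. Which libraries entered decided the calls in this class. Without Tet-TKO library 3 all 8 members were called (Hba-x at -3.38), where 751 of 11679 genes were. Without Tet-TKO library 2 none was, Hbb-bh0 included (3.08, adjusted p = 0.0313), where 63 of 11641 genes were. Which cells entered mattered too. With only cells whose tdTomato UMIs matched their fraction more members were called, where 545 of 6779 genes were. In library 3 the 9 cells without a tdTomato UMI made 147600 CPM of the 8 genes and the 10 with one 37990 CPM.

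Several measures moved with the low level in these few Tet-TKO cells, and their part in it was not tested beyond the values given here. Scrublet called 63.2%, 61.2% and 26.3% of the erythroid-like cells doublets in Tet-TKO libraries 1 to 3, against 15.8% and 12.49% in WT host libraries. Most WT host cells of the class were in clusters 2 and 13, and most Tet-TKO cells in clusters 45, 46 and 49, of which cluster 49 has a median UMI count of 0.205 of that of its libraries. Without the cells called doublets, which leaves Tet-TKO libraries 2 and 3, the log2 fold changes shrank to -0.80 for Hba-x, -0.84 for Hbb-bh1, -0.80 for Hbb-y and -0.61 for Hba-a1. In library 2, 31 of the 33 cells with a tdTomato UMI were doublet calls, against 10 of the 34 without. In library 3, 5 of the 10 with and 0 of the 9 without were. Most Tet-TKO library cells left in this fit thus had no tdTomato UMI. Only 55 of the 112 erythroid-like cells of the 4 Tet-TKO libraries had a tdTomato UMI, and none of the 7 of library 4 had one. In the cells with a tdTomato UMI the 8 genes made 23360 CPM, and in those without one 84040 CPM. Doublet calls moved with this split: 46 of the 55 cells with a tdTomato UMI were called doublets and 12 of the 57 without.

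Hbb-bh0 was the only member whose level was higher in every Tet-TKO library than in both WT host libraries of a blood cell group. Such an order was common among all genes, at 18.3% in cluster 9 and 42.5% in erythroid-like cells, and is not read as a result. In erythroid-like cells it holds only without library 4. The 7 such cells of that library made 19.67 CPM of Hbb-bh0, against 8.897 and 21.02 CPM in WT host. In cluster 9 the values were 269.5, 564.9 and 745.1 CPM for the first 3 Tet-TKO libraries, and 11.79 and 10.15 CPM for the WT host libraries, a log2 fold change of 5.54 (SE 0.41, adjusted p = 7.04e-05). The groups did not overlap, and the 4 cells of library 4, left out of the fit, made 409.6 CPM. Among cells of cluster 9 in Tet-TKO libraries, 81.7% of those with a tdTomato UMI and 87.1% of those without had at least 1 Hbb-bh0 UMI, against 7.63% of the WT host cells. In neural cells Hbb-bh0 was at 0 to 1.217 CPM in all 6 libraries.

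**Figure D4:**
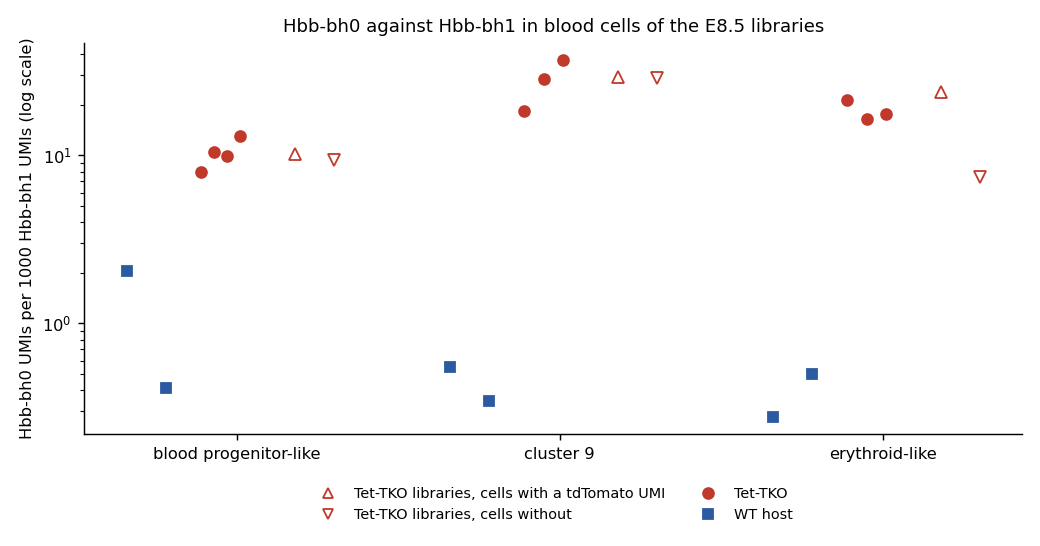
Hbb-bh0 UMIs per 1000 Hbb-bh1 UMIs (log axis) in 3 groups of blood cells of the E8.5 libraries (circles Tet-TKO, squares WT host, at least 10 cells each); open triangles pool the cells of the 4 Tet-TKO libraries with (pointing up) and without (pointing down) a tdTomato UMI. In cluster 9 the Tet-TKO libraries sit between 18.3 and 36.7 and the WT host libraries at 0.552 and 0.344.

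The ratio of Hbb-bh0 to Hbb-bh1, its neighbour on the same strand, takes the overall globin level out of the comparison. Per 1000 Hbb-bh1 UMIs there were 18.3, 28.3 and 36.7 Hbb-bh0 UMIs in cluster 9 of the first 3 Tet-TKO libraries, where the WT host libraries had 0.552 and 0.344. In blood progenitor-like cells the ratio was 7.94, 10.5, 9.98 and 13.04 against 2.06 and 0.412, and in erythroid-like cells 21.4, 16.4 and 17.7 against 0.279 and 0.5002. The 2 genotypes overlapped in none of the 3 groups. The 7 erythroid-like cells of library 4, which had no tdTomato UMI and are left out, had 0.776. The cells of the Tet-TKO libraries that had no tdTomato UMI behaved differently by cluster. In cluster 9 their ratio was 28.9 (101 cells), next to 29.3 in the 71 cells with a tdTomato UMI. By library the 2 kinds of cells differed both ways: 17.4, 30.8 and 26.8 without against 18.7, 22.7 and 45.5 with in libraries 1 to 3. In erythroid-like cells it was 7.47 (57 cells) against 24.0 (55 cells), and in the 10 such cells of cluster 2 it was 0.511, next to 0.527 in WT host cells of that cluster. The cluster 2 value rests on 5 Hbb-bh0 and 9780 Hbb-bh1 UMIs. In the other erythroid-like clusters the cells without a tdTomato UMI lay far above the WT host cells, which had 0.260 to 0.451. The ratio was 24.9 in the 5 cells of cluster 13 (77 Hbb-bh0 UMIs) and 15.7 in the 2 of cluster 45 (6 UMIs). It was 21.03 in the 8 of cluster 46 (18 UMIs) and 7.18 in the 32 of cluster 49 (14 UMIs). All of these cells of clusters 45 and 46 were doublet calls. Hbb-bh0 was called in cluster 9 under each alternative that kept the clustering, some of which repeat the same fit, with log2 fold changes of 5.20 to 5.84. At resolution 1, where cluster 9 and the blood progenitor-like cells best match the same cluster, the log2 fold change of Hbb-bh0 was 4.54, and it was called. In erythroid-like cells the call was lost with like Tet-TKO libraries summed, at a minimum of 5 cells per sum and without Tet-TKO library 1 or 2, at adjusted p-values of 0.0135 to 0.0313. In blood progenitor-like cells it was gained with DESeq2, with no filter, with the replicate block, with like Tet-TKO libraries summed and without Tet-TKO library 1. It was not gained in the libraries of the block when the block was left out. With all libraries, Hbb-bh0 passed the filter on low counts in both of these groups only through the Tet-TKO libraries. Its calls in erythroid-like and blood progenitor-like cells are therefore not read as results. Without correction between libraries the log2 fold change of Hbb-bh0 was 0.84 (adjusted p = 0.917). As background, the beta-globin cluster is known to differ between inbred mouse strains, and reads of both fractions were aligned to the C57BL/6J genome; strain and genotype cannot be told apart here.

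The mix of globin transcripts shifted along the blood clusters of the host. In each 3′ library a transcript is counted once whatever its length, and the shares below are shares of the UMIs of the 8 genes. Hbb-bh1 made 82.7% of them in E7.5 cluster 26 and 84.2% in E7.5 cluster 13, 63.8% and 55.8% in the blood progenitor-like cells of the E8.5 WT host libraries, 39.7% and 35.8% in cluster 9, 32.1% and 29.04% in cluster 13 and 27.4% and 23.8% in cluster 2. Over the same steps Hba-x went from 1.06% and 9.11% at E7.5 to 27.6% and 31.6%, 50.6% and 50.1%, 53.8% and 51.4%, and 51.1% and 46.5%. Among these E8.5 blood clusters of the host Hbb-y had its highest share in cluster 2, at 15.1% and 23.0%, where the summed level was also highest. Alpha-like UMIs per 100 beta-like UMIs went from 1.43 and 12.46 at E7.5 to 45.0 and 54.3 in blood progenitor-like cells to 123 in cluster 9 of both WT host libraries and to 143.5 and 133.3 in cluster 13, and were 132.6 and 110.8 in cluster 2. These are orders of shares in 1 library at E7.5 and 2 at E8.5, with no test.

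**Figure D5:**
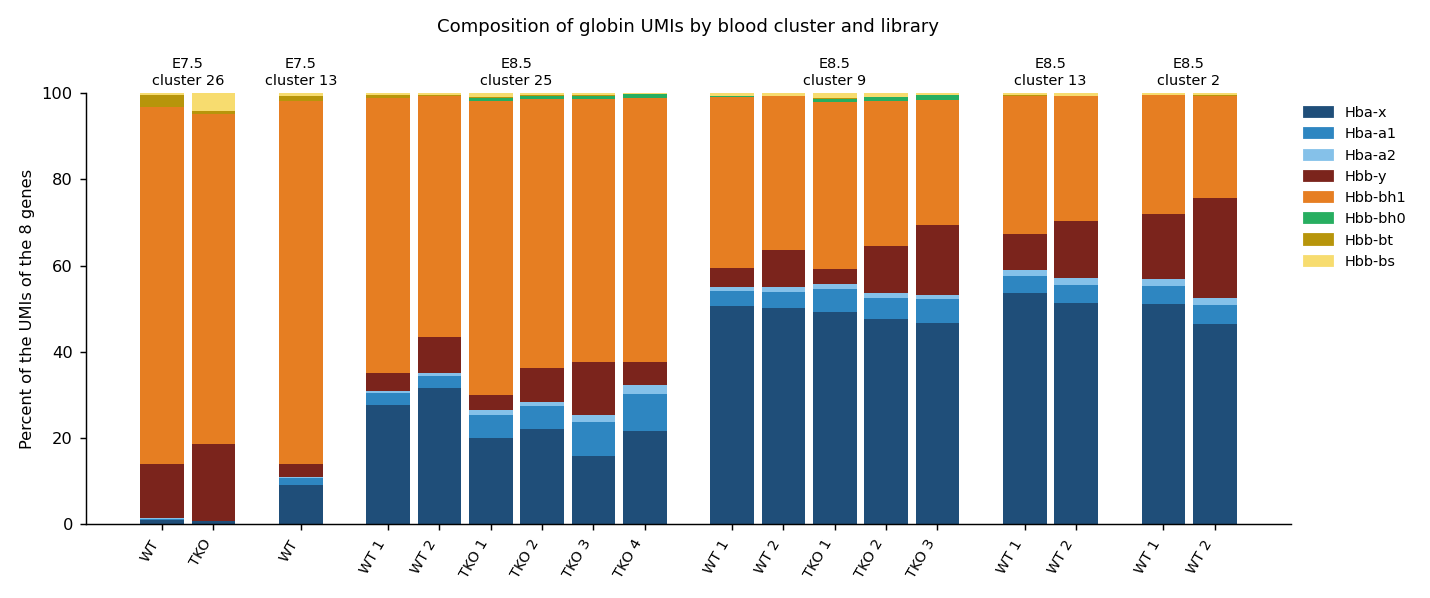
Share of each member in the UMIs of the 8 globin genes (stacked bars, percent) in 2 blood clusters of E7.5 and 4 of E8.5, 1 bar per library with at least 10 cells, with the summed level of the host cells rising from the blood progenitor-like cluster 25 to cluster 2. The Hbb-bh1 share of the WT host bars drops from 84.2% to 23.8% from E7.5 cluster 13 to E8.5 cluster 2.

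In blood progenitor-like cells the shares of Hba-x, Hba-a1 and Hba-a2 in the UMIs of the 8 genes each did not overlap between the genotypes, but no difference passed its test, and the summed alpha-like share overlapped. Hba-a1 and Hba-a2 together made 21.8% to 37.4% of the alpha-like UMIs in the 4 Tet-TKO libraries (mean 29.1% ± 7.12, SD) and 10.2% and 11.01% in the WT host libraries. The exact two-sided permutation test gave p = 0.0667, the smallest that 4 against 2 libraries allow, and an adjusted p of 0.213 over the 16 measures compared, so the difference did not pass. Hba-x made 15.9% to 22.2% of the UMIs of the 8 genes against 27.6% and 31.6% (p = 0.0667, exact). The Hbb-y and Hbb-bh1 shares of the beta-like UMIs overlapped. In cluster 9 the adult alpha share was 11.6% ± 0.494 (SD, n = 3) against 8.74% ± 0.501 (SD, n = 2), without overlap, at an exact p = 0.1, the smallest that 3 against 2 libraries allow, and an adjusted p of 0.267. In erythroid-like cells it was 13.6% ± 2.15 (SD, n = 3) against 10.3% ± 1.20 (SD, n = 2), with an exact p = 0.2 and an adjusted p of 0.4. Within the adult alpha pair, whose copies share most of the read windows, Hba-a2 made 16.6% in cluster 9 of Tet-TKO against 23.4% in WT host libraries (exact p = 0.1), and 21.3% against 27.3% in erythroid-like cells (exact p = 0.1).

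Cluster 29, with Etv2 and Kdr in the lead, held about as much globin RNA as the neural cells of the same library. It had 15.16, 41.71, 21.94 and 8.112 CPM of the 8 genes in Tet-TKO and 471.7 and 1338 CPM in WT host libraries. Relative to the neural cells of the same library this was a mean log2 ratio of -0.12 in Tet-TKO and -0.45 in WT host. Hbb-bh1 fell there by 4.37 on the log2 scale, where 0.306% of genes were called lower. The 4 further members tested, Hba-x among them, passed the filter on low counts only through the WT host libraries, where they are high, so that they could only be lower, and the number called is not read. After the UMIs expected from the neural cells were subtracted no member was called, where 38 of 8812 genes were. Of the Tet-TKO library cells of cluster 29, 364 had a tdTomato UMI and 95 had none. In the neural cells themselves Hba-x (-5.97), Hbb-y (-6.12) and Hbb-bh1 (-5.04) fell, where 0.347% of genes were called lower, and the 4 further members tested passed the filter only through the host.

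Endothelium-like cells, which share an origin with blood in the yolk sac, had 20.65, 48.25, 17.00 and 7.242 CPM in Tet-TKO and 2041 and 5879 CPM in WT host libraries. Hba-x (log2 fold change -7.60), Hbb-y (-7.53) and Hbb-bh1 (-6.43) fell here, where 0.746% of genes were called lower. The 4 further members tested passed the filter on low counts only through the host libraries, and Hbb-bs, for one, had UMIs in 1 Tet-TKO library (0.590 CPM). In the WT host libraries 4 and 14 cells with over 1% globin UMIs, of which 4 and 9 were called doublets, held 71.9% and 76.0% of the globin UMIs of the class. The rest had 586.5 and 1489 CPM, next to 606.1 and 1519 CPM in neural cells without those over 1%, and no Tet-TKO endothelium-like cell passed 1%. In the Tet-TKO libraries 715 endothelium-like cells had a tdTomato UMI and 214 had none, with 26.55 and 41.57 CPM of the 8 genes. With the doublets removed Hba-x, Hbb-y and Hbb-bh1 were still called lower, at -6.43, -6.35 and -5.47, where 87 of 11356 genes were called lower. In the neural cells, which set the free RNA background, these members fell by similar amounts, as given above.

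At E7.5, with 1 library of each genotype and no replicate check, nearly all globin UMIs were in the WT host library. The Tet-TKO library held 222 globin UMIs, or 2.11 CPM, and the WT host library 15710, or 151.7 CPM. In the Tet-TKO library 3372 of 5510 cells carried tdTomato UMIs, against 38 of 7142 in the WT host library. The ratio of WT host to Tet-TKO was 71.9 for the 8 genes (95% exact interval 63.0 to 82.5, which covers counting error only), 92.4 for Hbb-bh1 (78.5 to 110) and 338 for Hba-x (132 to 1242), which rests on 4 UMIs in the Tet-TKO library. Of the WT host UMIs 88.8% lay in cluster 13, with Klf1 and Cited4 among its leading genes, which held 371 WT host and 3 Tet-TKO cells. In the Tet-TKO library 55.4% lay in cluster 26, which is blood progenitor-like, with 30 Tet-TKO and 138 WT host cells.

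Within that E7.5 progenitor cluster the gap was small. Hbb-bh1 made 105.9 CPM in Tet-TKO and 225.8 CPM in WT host cells, a ratio of 2.13 (1.71 to 2.69). Hbb-y made 24.8 and 34.7 CPM, a ratio of 1.40 whose interval spans 1 (0.858 to 2.37). In haematoendothelial progenitor-like cells of E7.5 the 8 genes were at 12.1 CPM in Tet-TKO and 10.7 CPM in WT host cells. The Sox2-positive background at this stage was 0.410 CPM in Tet-TKO and 7.38 CPM in WT host cells, and in the host the intervals of the 2 groups overlap (7.32 to 15.1 CPM and 5.78 to 9.28 CPM). No Hbb-bh0 UMI was found in cluster 26 of either library. The 95% exact intervals reach up to 4.16 CPM in Tet-TKO and 1.78 CPM in WT host cells.

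Lists of genes that act with the globins were compared in the same fits. In whole E8.5 libraries, where 2.06% of all genes were called lower, 8 of the 12 haem supply genes tested fell, among them Alas2, the erythroid enzyme of the first step of haem synthesis (log2 fold change -5.02), and Slc25a37, which brings iron into mitochondria (-2.76). Of 13 regulators of globin genes 4 fell: Klf1 (-4.24) and Gata1 (-2.94), which activate globin genes, Tal1 (-1.88) and Zfpm1 (-1.27). The median log2 fold change was -2.03 for the haem supply list and -0.46 for the regulators, against 0.02 for all genes. Within the alpha- and beta-globin loci the minor genes Hbb-bh2 (-3.69) and Hbq1b (-3.60) fell, 2 of 3 tested. None of the 6 genes next to the alpha-globin cluster was called by edgeR, among them Nprl3, whose introns hold the alpha-globin enhancers (-0.01). Of the 6, 2 had an unadjusted p under 0.05, as did 5621 of the 21072 genes tested. All of these calls were lost with like Tet-TKO libraries summed, where no gene was called, and leaving out 1 library at a time cut the genes called from 558 to between 108 and 235.

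In erythroid-like cells, where 1.6% of all genes were called lower and 4.68% higher, 6 of 12 haem supply genes fell, with Alas2 at -2.52, as did Klf1 (-1.98) and Gata1 (-1.11), while Myb, a factor of immature blood cells, rose (2.88, adjusted p = 0.00609). The doublet shares of 26.3% to 63.2% in Tet-TKO against 12.49% and 15.8% in WT host libraries, and the different clusters that hold most cells of each genotype, apply to these genes too, and their part in these differences was not tested. The calls also depend on the libraries used: of all genes, 117 were called lower, but 7 with like Tet-TKO libraries summed, 13 without Tet-TKO library 2 and 13 at a minimum of 5 cells per sum, which brings in library 4. The number rose to 247 without Tet-TKO library 3, to 384 with the replicate block and to 161 with cells of matching tdTomato. Gata1 was just inside the threshold (adjusted p = 0.009999). In blood progenitor-like cells Klf1 was the only gene of these lists that was called (-1.43, adjusted p = 0.00503). Without correction between libraries 0 of 8861 genes were called in these cells. In cluster 9 no gene of the lists was called, with Klf1 at -0.81 and an adjusted p of 0.00655, under the fold threshold. The list medians in blood progenitor-like cells and cluster 9 were -0.26 and -0.24 for haem supply, against 0.01 for all genes in both. Among the genes whose level was most like that of the 8 members over 172 sums of class and library were Alas2 (Pearson r = 0.898), Cited4 (0.844) and Trim10 (0.802), as a description of sums that share libraries.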

How the data were processed

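Reads had been aligned by the authors to mm10 in Cell Ranger (version not given in the labels) and counted with the GRCm38.92 annotation plus tdTomato. They deposited raw UMI counts per gene and barcode, which were used as they are. Cells were kept at 1500 UMIs or more, at most 30% mitochondrial and 35% ribosomal UMIs. They were clustered per stage with scanpy 1.11.5 and leidenalg 0.10.2 in Python 3.11.15 (2500 variable genes without the globins, 50 components, 20 mutual nearest neighbours between libraries, 15 neighbours, resolution 2) and named from marker lists that hold no globin. UMIs were summed per group and library (at least 10 cells) and tested over all genes with edgeR 4.0.16 in R 4.3.3 (filterByExpr, TMM, glmQLFit, glmQLFTest). DESeq2 1.42.0, other filters, normalizations, clusterings and library sets were alternatives. Shares were compared over libraries by exact permutation tests, E7.5 values by exact intervals. Scripts were tested on simulated data. The text names the 8 members, the fixed gene lists and the genes most correlated with the members, of which some are not reported here. Members, lists and cluster choices were made with earlier results of these data known. Cluster 9 and cluster 29 were added as groups after the clusters were seen.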

Additional observations from a re-analysis of the deposited data

Results flagged for a closer look

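In groups of 4 libraries, the lowest or highest value was compared with the gap to its neighbour, over the values of each member in each group of cells. Of 49 such comparisons 3 stood apart, and chance gives about 1 in 20. They were the Hba-a2 level of endothelium-like cells in Tet-TKO library 4, at 0 CPM, the Hbb-bs level of endothelium-like cells in Tet-TKO library 2, at 0.590 CPM, and the Hbb-bt level of Sox2-positive neural cells in Tet-TKO library 1, at 0.681 CPM. All 3 rest on a few UMIs.

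Outside the comparisons, 7 barcodes held at least 100 globin UMIs of which at least 30% were from the adult beta genes. All 7 were in the WT host libraries, and none was in a Tet-TKO library. Summed over them, Hbb-bs made 65.2%, Hba-a1 20.8%, Hbb-bt 7.77% and Hba-a2 5.80% of the globin UMIs, with Hba-x at 0.245% and Hbb-bh1 at 0.122%. Of these barcodes 1 lay among the neural cells of WT host library 1, where 710 of its 1638 UMIs were globin UMIs. Without it the Hbb-bs level of those neural cells went from 79.96 to 4.806 CPM and that of the 8 genes from 727.7 to 606.1 CPM. The other 6 were in WT host library 2, 4 of them in cluster 50. With all 7 removed, 6 members were still called in whole libraries, where 558 of 21072 genes were. Hbb-bs was then at a log2 fold change of -4.49.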

How the results depend on the processing

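Leaving out 1 library at a time moved the number of members called between 0 and 4 in whole libraries, 0 and 8 in erythroid-like cells, 0 and 1 in blood progenitor-like cells, 1 and 2 in cluster 9, 2 and 5 in cluster 29, 5 and 6 in endothelium-like cells and 4 and 6 in neural cells. With 1 Tet-TKO library left out, 181 of 20570 to 235 of 20592 genes were called in whole libraries. The numbers were 63 of 11641 to 751 of 11679 in erythroid-like cells and 15 of 8492 to 34 of 7549 in blood progenitor-like cells. In cluster 9 they were 49 of 9348 to 217 of 9618, and in cluster 29 they were 40 of 8829 to 56 of 8794. Endothelium-like cells had 90 of 11666 to 146 of 11979, and neural cells 50 of 12040 to 94 of 12364. The last 3 groups include members that passed the filter on low counts only through the host. With all libraries, Hbb-bh0 passed it in erythroid-like and blood progenitor-like cells only through the Tet-TKO libraries. The adult alpha share of erythroid-like cells differed by 2.12 to 4.24 points, and 7 to 8 classes lay above the neural cells. The numbers of the libraries do not pair them by the labels. In whole libraries, the differences between Tet-TKO libraries 1 and 2 correlated with those between WT host libraries 1 and 2. The r was 0.311 over 21072 genes, from 1 difference per genotype and gene. With the replicate number as a block (libraries 1 and 2) there were 7 calls in whole libraries, 8 in erythroid-like cells, 2 in blood progenitor-like cells and 2 in cluster 9. Of all genes 1711 of 20238, 1161 of 11679, 79 of 8690 and 290 of 9618 were called in these fits. The same libraries without the block gave 1 call in whole libraries, 8 in erythroid-like cells and 2 in cluster 9. There 462 of 20238, 751 of 11679 and 217 of 9618 genes were called. With like Tet-TKO libraries summed (1 with 2, 3 with 4) there were 0 calls in whole libraries, 0 in erythroid-like cells, 1 in blood progenitor-like cells and 3 in neural cells. These fits called 0 of 20734, 45 of 11785, 43 of 8548 and 35 of 12958 genes. With no filter on low counts there were 8 calls in erythroid-like cells, 3 in blood progenitor-like cells and 2 in cluster 9. The genes called were then 1163 of 23484, 160 of 18860 and 307 of 19456. DESeq2 called 2 members in erythroid-like and 1 in blood progenitor-like cells, where it called 657 of 7332 and 52 of 8211 genes. Cells with matching tdTomato gave 4 in erythroid-like cells, where 545 of 6779 genes were called. At resolution 1 there were 2 in erythroid-like and 1 in blood progenitor-like cells, where 441 of 7667 and 178 of 9536 genes were called. At least 5 cells per sum gave 0 in erythroid-like cells (57 of 7453 genes called), and at least 30 gave 2 in cluster 9 (217 of 9618). Without correction between libraries there were 2 calls in cluster 29 (15 of 8849 genes called) and 1 in neural cells (68 of 12789). In that setting 4 classes lay above the neural cells. With free RNA subtracted there were 0 calls in cluster 29, where 38 of 8812 genes were called. The causes were not tested.

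No log2 fold change reversed in whole libraries, erythroid-like cells, cluster 29, endothelium-like or neural cells under the alternatives run. In blood progenitor-like cells without correction it was 0.55 for Hba-x, 1.16 for Hbb-y, 0.0796 for Hbb-bh1, 0.56 for Hbb-bt and 0.43 for Hbb-bs. At resolution 1, which merged them with cluster 9, it was -0.43 for Hba-a1 and -1.09 for Hba-a2. Hba-a2 was also at -0.13 with the block and at -0.14 both for these libraries without it and for at least 30 cells. In cluster 9, Hba-a1 was at -0.0496 with the block, -0.0524 without it and at 30 cells, -0.43 at resolution 1 and -1.36 without correction. These last 2 settings compare other cells: at resolution 1 the match is the cluster that also stands for the blood progenitor-like cells, and without correction it is the erythroid class of that clustering (Jaccard index 0.210). Hbb-y there was at -0.44 with the block, -0.27 without it and at 30 cells, -0.50 at resolution 1 and -1.65 without correction. Hbb-bs there was at -0.0372 with matching tdTomato, -0.000932 with libraries summed, -0.93 at resolution 1 and -1.502 without correction. Leaving out libraries gave -0.16 to 0.97 for Hba-a2 and -1.17 to 0.82 for Hbb-y in blood progenitor-like cells, and -0.17 to 0.57 for Hba-a1, -0.27 to 1.40 for Hbb-y and -0.15 to 0.41 for Hbb-bs in cluster 9.

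Among shares of erythroid-like cells, the Hbb-bh1 share of beta-like UMIs differed by -4.92 points without doublets, -0.867 with libraries summed, -0.0754 without correction, -0.345 in cluster 45 and -0.870 in cluster 49 alone, and by -2.97 to 15.5 without single libraries. The Hba-a2 share of adult alpha differed by 0.916 in cluster 49 alone. In blood progenitor-like cells the alpha-like share differed by 4.54 without correction and the Hbb-bh1 share of beta-like UMIs by 0.681 at 30 cells, and by -4.42 to 1.91 without single libraries. Single erythroid-like clusters and erythroid-like sums of at least 30 cells were not tested by edgeR, for too few Tet-TKO libraries. In neural cells Hbb-bh0 rests on a few UMIs per library, so a difference there was not detectable at this depth.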

Other observations

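Myeloid-like cells (cluster 40, led by Fcer1g, Plek and Spi1) held globin UMIs above the neural background. The 8 genes made 710.9, 751.7, 3845 and 1660 CPM there in Tet-TKO libraries 1 to 4, of which the last 2 rest on 12 and 6 cells, and 2740 and 6773 CPM in WT host libraries. In 5 of the 6 libraries a few barcodes with over 1% globin UMIs held much of the total, from 25.4% of it in 1 of 46 cells (Tet-TKO library 2) to 75.2% in 1 of 6 cells (Tet-TKO library 4), with 68.4% in 10 of 126 cells of WT host library 2. None of these barcodes was a doublet call. The median myeloid-like cell of the WT host libraries had 0.0861% and 0.172% globin UMIs, next to 0.0552% and 0.143% in neural cells. In Tet-TKO libraries 1 to 4 it had 0.00743%, 0.0101%, 0.0261% and 0.0195%, next to 0 to 0.00181% in neural cells.

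The globin level of each class was set against that of the neural cells of the same library, in classes with at least 10 cells. The mean log2 ratio was, in Tet-TKO against WT host libraries, 9.14 against 3.97 in blood progenitor-like cells, 10.99 against 5.94 in cluster 9 and 5.58 against 1.99 in myeloid-like cells. For endothelium-like cells it was -0.09 against 1.67. Over the 6 classes compared, the exact permutation p was 0.0667 to 0.333 and the adjusted p 0.15 to 0.333, and 4 against 2 libraries cannot go below 0.0667, nor 3 against 2 below 0.1, so no class could pass. The neural level is the divisor in each ratio and itself differed between the genotypes.

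Further classes above the neural cells in every library measured were cluster 57 (mean log2 ratio 5.54, 2 WT host libraries), cluster 50 (3.52 over 5 libraries), whose leading genes include mt-Rnr1, mt-Rnr2 and Gm42418 and which holds 4 of the barcodes rich in adult beta globin, visceral and yolk sac endoderm-like cells (1.93, 2 WT host libraries) and epiblast-like cells (0.241, 1 Tet-TKO library). For cluster 50 the log2 ratio was 1.03, 1.95, 1.70 and 6.31 in Tet-TKO libraries 1 to 4. In WT host library 2, which holds those 4 barcodes, it was 6.63.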
